A study of Mus musculus with 2 samples.

Results

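The genes described here are the amino acid transporters of 7 solute carrier families (Slc1, Slc3, Slc6, Slc7, Slc36, Slc38 and Slc43), taken by gene name from 2 one-colour microarrays of mouse skeletal muscle. The rule found 63 genes, on 83 probes, among 34740 gene names on the array. The brightest probe stands for its gene, with any other probes beside it. The name Slc7a6os belongs to a gene opposite Slc7a6 that is no transporter; it matches the rule and is counted (log2 ratio of C26 over control 0.37). The control array held RNA from muscle of male CD2F1/Slc mice, an F1 hybrid strain, aged 11 weeks and injected with PBS. The C26 array held RNA from muscle of male CD2F1/Slc mice of the same age that had been implanted under the skin of the flank with 1000000 cells of the colon 26 (C26) mouse carcinoma in 100 µL of PBS, a model of cancer cachexia. There was 1 array per group, and the sources used here do not say which muscle was taken, when, or whether animals were pooled. No spread between animals could therefore be estimated, no test was run, and each value describes these arrays.

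Amino acid transporters move amino acids across the plasma membrane and the membranes of lysosomes. The Slc7 light chains work as exchangers bound to an Slc3 heavy chain, whereas the Slc38 and Slc6 carriers are driven by the sodium gradient, and exchangers such as LAT1 use amino acids that the sodium-coupled carriers have gathered to bring in leucine. In muscle this supply feeds protein synthesis and mTORC1, the kinase complex that senses amino acids, and in wasting muscle amino acids released from protein leave the fibre.

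Each signal below is a relative signal, the background-subtracted signal of a probe divided by the 75th percentile of all probes on the same array, so it can be compared between the arrays but not between probes. The log2 ratio is the C26 value minus the control value, and its error is the scanner software's own error, which covers the measurement of spots alone. Of the 63 genes, 38 were well above background on both arrays and are called measured, 6 were so on the C26 array alone, none on the control array alone, and 19 on neither. Of the 38 measured genes, 36 rested on 1 spot per array. All 14 skeletal muscle markers were measured and none differed 2-fold. The 75th percentile of the processed signal was 262.3 in the control and 249.5 in the C26 array.

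Ratios of the transporters lay on both sides of 0. Slc6a20a, a carrier of proline and other imino acids, was 4.18-fold higher with C26, and Slc7a2 (CAT2), a carrier of arginine and lysine, 2.66-fold higher. These were the 2 of 38 measured genes at least 2-fold higher, 5.26% of them against 1.25% of all 19668 measured genes, and none was 2-fold lower, against 1.15%. Slc38a2 (SNAT2), a sodium-coupled carrier of glutamine and alanine, was close to that size at 1.94-fold higher. Slc38a5 (SNAT5) was seen above background on the C26 array alone. Set against the lowest control signal well above background, it was at least 2.46-fold higher, and its log2 ratio had a scanner error of 0.80. Slc7a5 (LAT1), a light chain of large neutral amino acid exchange, had the lowest measured ratio on its brightest probe, and its other probe had the opposite sign.

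At 1.5-fold, 7 measured genes were higher (18.4% against a background of 4.37%) and 2 were lower (5.26% against 4.83%), and 29 lay within 1.5-fold, or 76.3% against 90.8% of all measured genes. The log2 ratio was above 0 for 23 of the 38 genes and below 0 for 15, which is 60.5% above 0 against 56.5% of all measured genes. Their median was 0.11, against 0.04 over all measured genes. A ratio farther from 0 than 2 scanner errors was found for 16 of the 38, or 42.1%, against 15.8% of all measured genes.

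**Figure D1:**
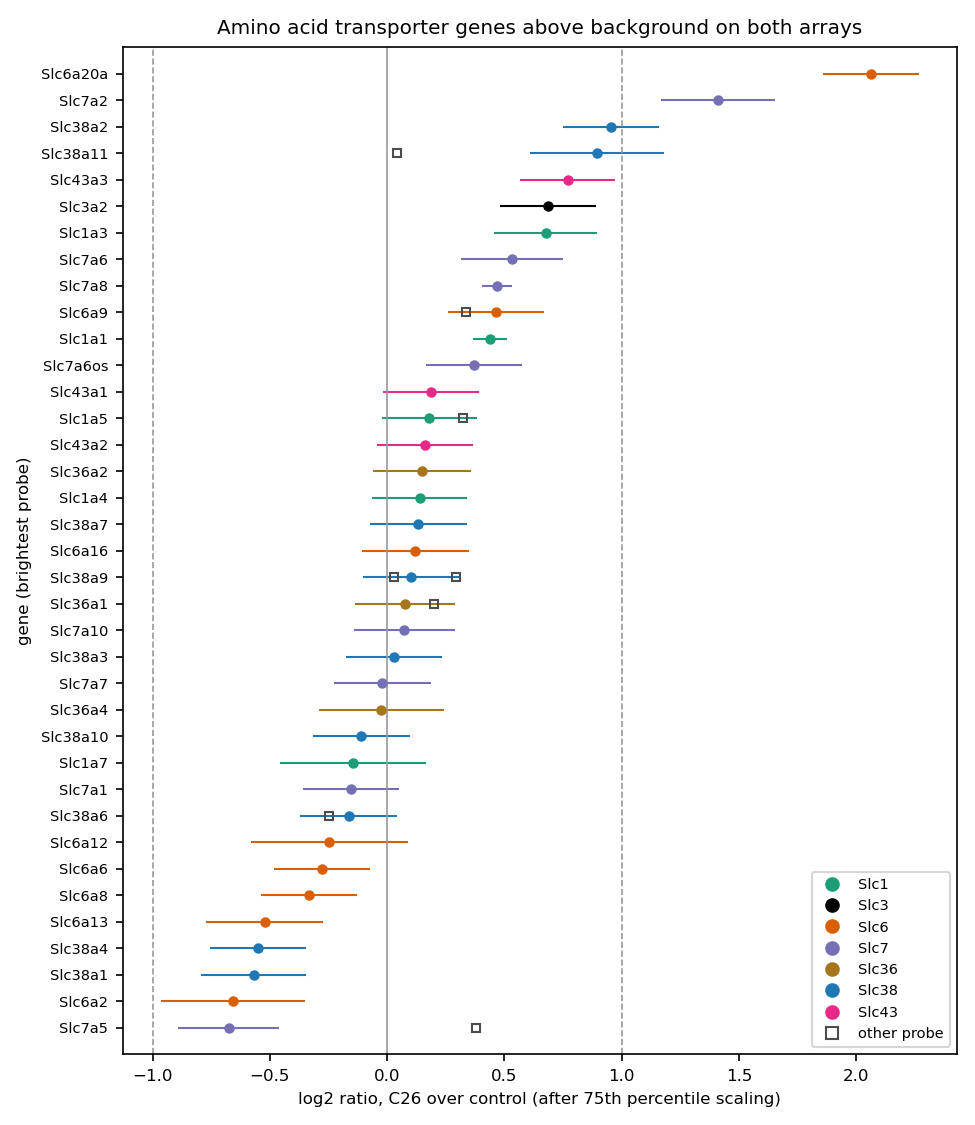
Log2 ratio (C26 over control) of all but 1 of the 38 transporter genes measured on both arrays, ordered by value and coloured by family; bars are the scanner error, open squares are other measured probes of the same gene, and dashed lines mark 2-fold. Slc6a20a and Slc7a2 lie past 2-fold, and the 2 probes of Slc7a5 lie on opposite sides of 0.

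**Figure D2:**
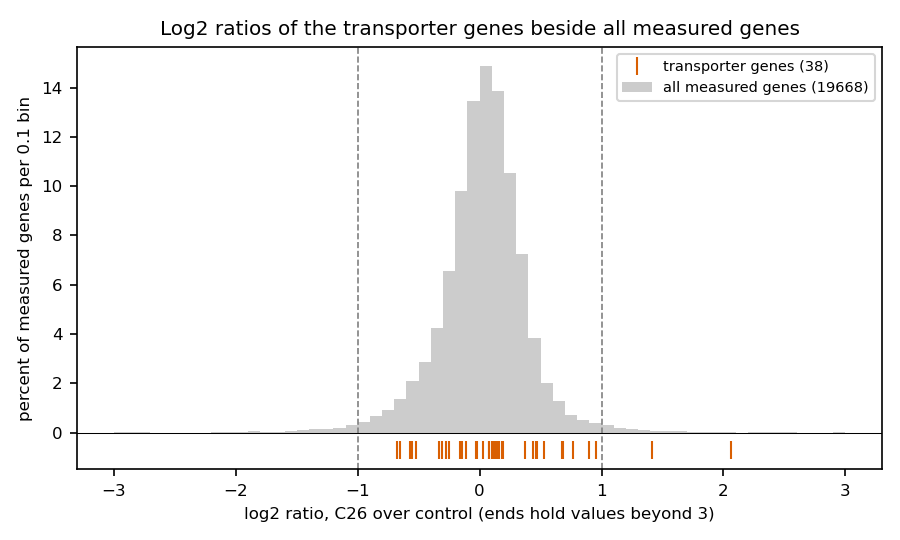
Log2 ratios of all 19668 measured genes (grey bars, percent of genes per bin) with the 38 transporter genes as ticks below; dashed lines mark 2-fold. Most ticks fall within the bulk of the distribution, and those of Slc6a20a, at 2.06, and Slc7a2, at 1.41, lie to the right of it.

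The heavy chain of the exchangers was higher in the C26 array. Slc3a2 (4F2hc), which carries the LAT and y+L light chains to the cell surface, had a relative signal of 9.88 in the control and 15.9 in the C26 array, 1.61-fold higher at a log2 ratio of 0.69 (error 0.20). The other heavy chain, Slc3a1 (rBAT), a protein of kidney and gut, was above background on neither array.

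The light chains that pair with Slc3a2 gave ratios on both sides of 0. Slc7a8 (LAT2), a further exchanger of neutral amino acids, went from 0.752 on the control array to 1.04 on the C26 array, a log2 ratio of 0.47 with the small error of 0.07, since its probe was printed in 10 spots. Slc7a6 (y+LAT2), which exchanges cationic for neutral amino acids, had 0.355 and 0.512, a log2 ratio of 0.53 (error 0.22). Its relative Slc7a7 (y+LAT1) had 1.102 and 1.086, and the arrays differed by less than the error, at -0.02 (error 0.21). Slc7a10 (Asc-1), an exchanger of small neutral amino acids, stood at 0.436 and 0.459. The cystine-glutamate exchanger Slc7a11 (xCT) was above background on neither array. Nor were Slc7a9, Slc7a12, Slc7a13 and Slc7a15, which are given here without regard to their heavy chain.

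For Slc7a5, the LAT1 light chain, the 2 probes gave log2 ratios of opposite sign. Both of its probes lie on the minus strand of chromosome 8 (mm9) with 25800 bases between them, and the first 30 of the 60 bases of each are given to show that they are distinct stretches; the probe at chr8:124430996-124431055 is the brighter and, on this strand, the more upstream.
Slc7a5 upstream probe: tagtcttcgccacctacttgctcaagccgg
Slc7a5 downstream probe: gtggttataatgtcttttactattgtatta
The upstream probe had a relative signal of 0.568 in the control and 0.356 in the C26 array, 1.60-fold lower at a log2 ratio of -0.68 (error 0.22). The downstream probe, at chr8:124405136-124405195, had 0.116 and 0.151, a log2 ratio of 0.38 (error 0.30). This dimmer probe lay less than 2 scanner errors from 0, so it cannot decide whether the direction depended on the probe. The mean of both probes was -0.15. Among the 7 transporter genes with several measured probes, Slc7a5 was the 1 whose probes differed in sign, and the gap of 1.06 between them was also the widest; Slc38a11 followed with a gap of 0.85.

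The facilitated carriers of the Slc43 family, which need no partner, all had ratios above 0. Slc43a1 (LAT3) and Slc43a2 (LAT4), carriers of branched-chain and aromatic amino acids, had relative signals of 1.69 and 1.74 on the control array and 1.93 and 1.95 on the C26 array, log2 ratios of 0.19 and 0.16 that are within their errors of 0.20. Slc43a3, a carrier of purine nucleobases rather than of amino acids, had 9.70 and 16.5, 1.70-fold higher at 0.77 (error 0.20). Slc43a1 and Slc43a3 have probes within 94.5 kb of each other on chromosome 2.

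The system A carriers, sodium-coupled importers of small neutral amino acids, had ratios of both signs. Slc38a2 had a relative signal of 16.01 in the control and 31.02 in the C26 array, a log2 ratio of 0.95 (error 0.20). Slc38a1 (SNAT1) had 0.363 and 0.245, 1.48-fold lower at -0.57 (error 0.22). Slc38a4 (SNAT4) had 8.04 and 5.48, 1.47-fold lower at -0.55 (error 0.20). The probes of these 3 genes lie within 418.7 kb on chromosome 15, all on the minus strand, with Slc38a2 between the other two (chr15:96518491-96518550, mm9), so the brightest probes of neighbouring genes differed in sign. Of the further Slc38a1 probes, 1 was above background on the C26 array alone, with 0.0191 and 0.0764, and the other on neither. The former was higher with C26, opposite to the brightest probe, but the scanner error of its log2 ratio was 1.48. Its C26 signal was also close to 0.0706, the lowest signal well above background on the control array. This dim probe therefore cannot decide whether the direction of Slc38a1 depended on the probe.

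Of the system N carriers, which move glutamine and histidine, Slc38a3 (SNAT3) had 2.61 and 2.66, a log2 ratio of 0.03 that turned below 0 under 5 of the 6 other scalings. Slc38a5 had 0.0322 in the control, not well above background, and 0.174 in the C26 array, a log2 ratio of 2.43 (error 0.80). Set against the lowest signal well above background on the control array, 0.0706, it was at least 2.46-fold higher. Such a bound is no strict limit, since Slc7a4 had 0.0791 on the control array and was not well above background there. A bound of at least 2-fold was reached by 7.07% of the 1443 genes seen on the C26 array alone, and by 1 of the 6 transporter genes among them. Its 1 probe was printed in 1 spot per array. The other 5, Slc1a6, Slc6a4, Slc6a7, Slc6a17 and Slc7a4, had bounds of 1.01-fold to 1.44-fold.

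**Figure D3:**
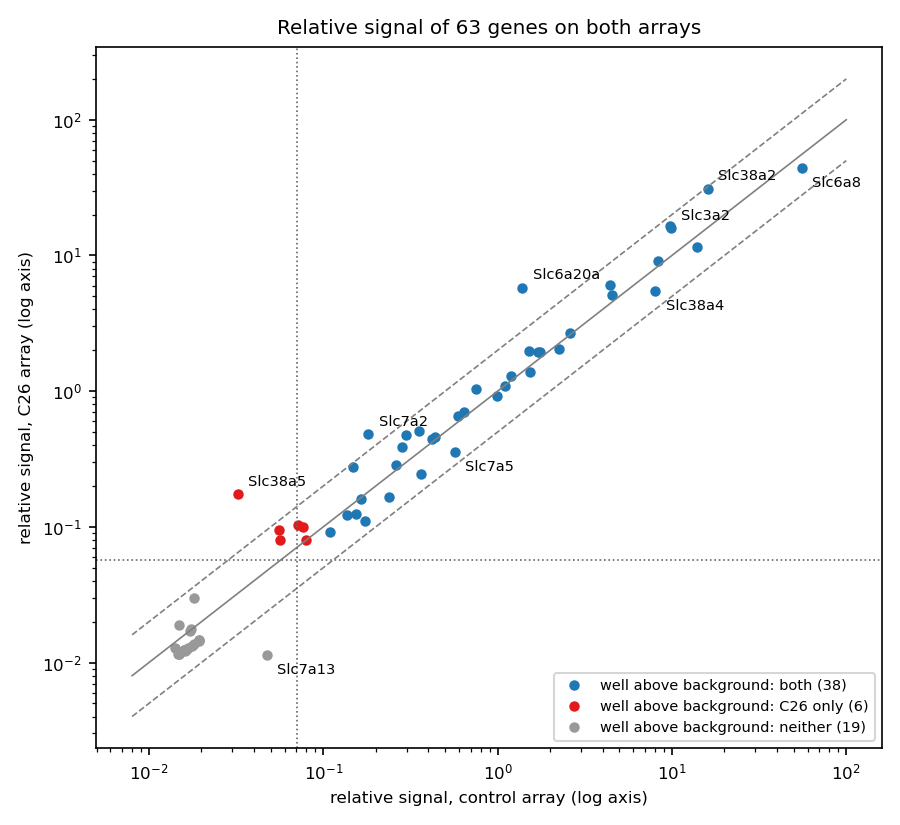
Relative signal of each of the 63 genes on the control array (horizontal, log axis) and the C26 array (vertical, log axis), by whether the probe stood well above background in both, in C26 alone or in neither. The solid line marks equal signal, dashed lines 2-fold, and dotted lines the lowest signal well above background on each array; Slc6a20a, Slc7a2 and Slc38a5 lie above the upper dashed line.

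The remaining Slc38 genes differed little, with 1 exception that rests on a dim probe. Slc38a9, a lysosomal carrier that reports arginine to mTORC1, had 1.20 in the control and 1.29 in the C26 array, a log2 ratio of 0.10 (error 0.21), and its other probes gave 0.03 and 0.29. Slc38a7, a lysosomal glutamine carrier, had 0.13, Slc38a10 -0.11, and Slc38a6 -0.16 with -0.25 on its other probe. Slc38a11 had 0.147 and 0.274, a log2 ratio of 0.89 (error 0.29), but its other probe gave 0.04, and the ratio was 0.38 with normexp background correction. Slc38a8 was above background on neither array.

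The cationic carriers, which supply arginine and lysine, differed between members. Slc7a2 had a relative signal of 0.181 in the control and 0.482 in the C26 array, a log2 ratio of 1.41 (error 0.24). Under normexp correction, a background model whose added offset pulls the ratios of dim probes to 0, its log2 ratio was 0.74 and it was no longer 2-fold higher. Slc7a1 (CAT1), the widely expressed cationic carrier, had 2.26 and 2.03, at -0.16 (error 0.20). Slc7a3 and Slc7a14 were above background on neither array.

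The exchangers of alanine, serine and cysteine differed by less than the scanner error on their brightest probes. Slc1a4 (ASCT1) had 8.32 and 9.15, a log2 ratio of 0.14 (error 0.20). Slc1a5 (ASCT2), an importer of glutamine, had 4.51 and 5.11, at 0.18 (error 0.20), with 0.32 on its other probe. Among the glutamate carriers of the same family, Slc1a3 (EAAT1) had 0.299 in the control and 0.478 in the C26 array, 1.60-fold higher at 0.68 (error 0.22). Slc1a1 (EAAT3), whose value averages 9 spots, had 0.285 and 0.386, at 0.44 (error 0.07). Slc1a7 stood at -0.15 (error 0.31), and Slc1a2 (EAAT2), with 3 probes, was above background on neither array.

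The proton-coupled carriers of the Slc36 family, of which PAT1 works on lysosomes, had ratios near 0. Slc36a1 (PAT1) went from 0.418 to 0.441, at 0.08 (error 0.21), with 0.20 on its other measured probe. Slc36a2 stood at 0.15 and Slc36a4 at -0.03 (0.165 and 0.162), and the sign of Slc36a4 turned under normexp correction. Slc36a3 was above background on neither array. The probes of Slc36a1, Slc36a2 and Slc36a3 lie within 82.5 kb on chromosome 11.

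Slc6a20a stood apart within the sodium- and chloride-dependent Slc6 family. Its relative signal was 1.38 in the control and 5.78 in the C26 array, a log2 ratio of 2.06 (error 0.205), and it lay between 1.88 and 2.02 under the 6 other scalings. Its 1 probe lies at chr9:123546031-123546090 (mm9) and was printed in 1 spot per array. The probe of its close paralog Slc6a20b, 41.9 kb across both on the same strand, was above background on neither array; whether the Slc6a20a probe tells the paralogs apart was not tested. The other carriers of neutral and imino amino acids Slc6a7 (proline), Slc6a14, Slc6a15, Slc6a17, Slc6a18 and Slc6a19, were not measured on both arrays.

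Of the 9 Slc6 genes measured, 3 had ratios above 0 (33.3%, against 56.5% of all measured genes) and 6 below. None of the 6 was 2-fold lower, and 1 was past 1.5-fold. The creatine transporter Slc6a8, through which muscle takes up creatine, had 55.5 in the control and 44.0 in the C26 array, at -0.33 (error 0.20). The taurine transporter Slc6a6 had 14.0 and 11.5, at -0.28 (error 0.20). Slc6a12, a carrier of betaine, had -0.25, within its error of 0.33, and Slc6a13 had -0.52, with 0.238 and 0.166. Slc6a2, the noradrenaline transporter of sympathetic nerve endings, had 0.174 and 0.110, 1.58-fold lower at -0.66 (error 0.31), and -0.22 under normexp correction. In the other direction, the glycine transporter Slc6a9 (GlyT1) had 4.39 and 6.06, at 0.46 (error 0.20), and an overlapping probe gave 0.34. Slc6a16, an orphan of the family, stood at 0.12. Slc6a3, Slc6a5 and Slc6a11 were above background on neither array.

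The promoters of the members were searched for the core of the amino acid response element, TGATGNAA, through which ATF4 acts on genes of amino acid supply, and for the FoxO core GTAAACA, on both strands of the RefSeq window from 250 bases before to 50 bases after each gene's start (GRCm38.p6). The windows covered 45 of the 63 genes, and Slc7a2, Slc7a5 and Slc43a3 were among those without a window. The response element core was in 4 of 66 member windows (6.06%, from 3 genes, Slc1a4, Slc7a7 and Slc7a11) against 3.97% of 32851 windows in all, and the FoxO core in 2 (3.03%, Slc7a11 and Slc36a3) against 3.65%. Shown here as examples are the 250 bases before the start of Slc6a20a, Slc38a2 and Slc3a2, which had higher ratios and neither core in their windows. Most members with a window had neither core. Slc7a11, also shown, has both cores and was above background on neither array. Whether either core bears on the ratios was not tested. Capitals mark the cores, read on either strand.
Slc6a20a, chr9:123678833-123679082, minus strand: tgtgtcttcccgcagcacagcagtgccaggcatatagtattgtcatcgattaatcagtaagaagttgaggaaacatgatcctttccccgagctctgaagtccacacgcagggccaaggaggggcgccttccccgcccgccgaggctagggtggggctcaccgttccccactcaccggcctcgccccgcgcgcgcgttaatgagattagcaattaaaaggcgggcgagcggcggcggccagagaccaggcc
Slc38a2, chr15:96699729-96699978, minus strand: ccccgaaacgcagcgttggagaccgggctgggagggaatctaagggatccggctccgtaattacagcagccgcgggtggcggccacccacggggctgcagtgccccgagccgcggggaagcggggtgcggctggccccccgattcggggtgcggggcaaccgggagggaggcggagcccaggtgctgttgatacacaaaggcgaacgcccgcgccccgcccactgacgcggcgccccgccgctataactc
Slc3a2, chr19:8713898-8714147, minus strand: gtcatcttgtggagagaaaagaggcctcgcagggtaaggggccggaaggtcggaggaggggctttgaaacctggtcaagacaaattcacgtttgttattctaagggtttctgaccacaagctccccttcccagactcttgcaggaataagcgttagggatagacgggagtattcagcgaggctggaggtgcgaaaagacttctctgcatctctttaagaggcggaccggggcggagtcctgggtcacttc
Slc7a11, chr3:50443614-50443863, minus strand: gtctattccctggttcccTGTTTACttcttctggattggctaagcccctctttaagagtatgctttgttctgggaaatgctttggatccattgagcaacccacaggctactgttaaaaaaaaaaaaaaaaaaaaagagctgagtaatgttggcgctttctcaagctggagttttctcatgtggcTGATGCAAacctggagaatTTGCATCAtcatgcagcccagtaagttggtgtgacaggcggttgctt
In the Slc7a11 window the response element cores begin 66 and 47 bases before the start and lie on opposite strands, and the FoxO core begins 232 bases before it. A match describes letters alone, and no match says that these letters are not in this window. Slc1a4 and Slc7a7, which hold the response element core, had log2 ratios of 0.14 and -0.02. Of the amino acid response genes listed next, 9 of 25 had the core in a window, beside 3.97% of all windows, and some of these genes have 2 windows. They were listed for their part in the response that this element serves, so their share is no independent result. Those of the 9 that the rule for named genes covers are Asns and Chac1, with higher ratios, and Pycr1, with a lower one.

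Genes around the transporters were given by lists. The amino acid response list, genes of the pathway through which cells answer a shortage of amino acids, had 22 of 25 members measured, of which 3 were 2-fold higher or more (background 1.25%), none was 2-fold lower (1.15%), and 14 were above 0, a share near the 56.5% of all measured genes. Their median log2 ratio was 0.20. Chac1, a glutathione-degrading enzyme, had relative signals of 24.3 and 74.4, at 1.61, Cebpb, a transcription factor, 1.20, and Asns (asparagine synthetase) 1.08. Atf4 itself stood at 0.45, while Eif2ak3 (PERK) and Pycr1, a proline-making enzyme, were lowest at -0.61 and -0.77. Aldh18a1, the enzyme before Pycr1 in proline synthesis, was well above background on the control array alone and lower with C26 by at least 2.33-fold; 45.2% of the 356 genes seen on that array alone had a bound of 2-fold or more.

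Over all measured genes the median was 0.04, 56.5% lay above 0, 1.25% were 2-fold higher and 1.15% were 2-fold lower. The amino acid sensing list upstream of mTORC1 had 31 of 32 members measured and none past 2-fold, with 23 above 0 and a median of 0.105. Castor1, an arginine sensor, and Sesn1, of the sestrin family, were highest at 0.81 and 0.75, and Rragc, a Rag GTPase, and Fnip1, a partner of folliculin, lowest at -0.13 and -0.42. Of 22 other amino acid and peptide carriers, 15 were measured and none was past 2-fold, with a median of -0.11. Slc15a4, a lysosomal carrier of histidine and peptides, had 0.89 and the mitochondrial glutamate carrier Slc25a22 0.67, against -0.90 for Slc15a3 and -0.71 for Mfsd12, a lysosomal cysteine importer. Of 12 partners and regulators of the transporters, 11 were measured; Cd44, which binds xCT, was 2-fold lower at -1.03 (-0.38 on its other probe), and Sgk1, a kinase that acts on transporters, and Txnip had 0.35 and 0.23.

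**Figure D4:**
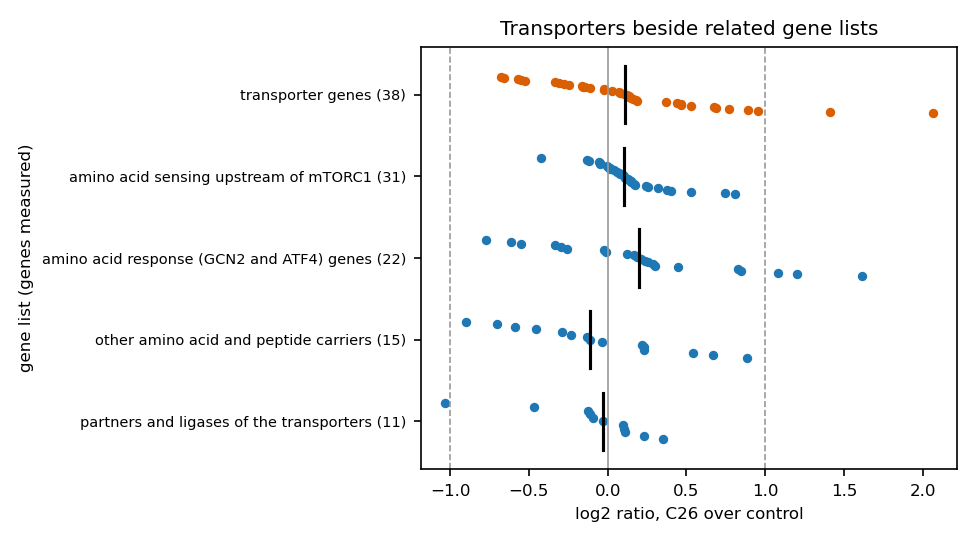
Log2 ratios (C26 over control) of the measured transporter genes and of 4 related lists, 1 point per gene, with black bars at the medians and dashed lines at 2-fold. The medians run from -0.11 for other carriers to 0.20 for the amino acid response genes, and the transporters hold the highest single value.

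Markers of other cells in the tissue also differed, and in whole muscle fewer cells of a type and less RNA per cell cannot be told apart. The counts below are by the brightest probe. Over all measured genes, 56.5% were above 0, 1.25% were 2-fold higher and 1.15% were 2-fold lower. Of 10 erythroid markers, 6 were measured, all above 0 and 4 of them 2-fold higher, with a summed relative signal of 1311 in the control and 2537 in the C26 array, while Epb42 and Kel were above background on neither array. Such sums mostly follow their brightest probes, here Hba-a2 (820 and 1180) and Hba-a1 (359 and 930). Slc38a5 and Slc6a9 are known in erythroid precursors, and the part of such cells in their values was not tested. Of 11 macrophage markers, 9 were measured, all below 0, with sums of 55.1 and 40.7. Another probe of Csf1r gave 0.03 and another of Itgam 0.02. Of 10 fibroblast markers, 9 were below 0, with sums of 907 and 516. All 10 endothelial markers were above 0 (sums of 90.0 and 121), though another probe of Kdr gave -0.63. Above 0 were also 7 of 9 adipocyte markers (195 and 264). Schwann cell and nerve markers, 9 of 11 measured with sums of 37.9 and 36.2, and the 5 of 9 epithelial markers measured, with sums of 3.26 and 4.15, had medians of -0.04 and 0.11. Of 9 neutrophil markers, 6 were measured, 3 above 0 and 3 below, with a median of 0.18; S100a8 (0.203 and 1.12) and S100a9 (0.922 and 4.69) were 5.51-fold and 5.09-fold higher, and Retnlg, seen with C26 alone, at least 2.79-fold higher. The neutrophil sums of 132 and 116 run the other way because Csf3r, at 126 and 105, makes up most of them. Of 10 lymphocyte markers, 7 were measured, 3 above 0 and 4 below, with Gzma 2-fold lower at -1.07 and sums of 23.0 and 25.1. Which cells of the muscle carried each transporter transcript was not tested.

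**Figure D5:**
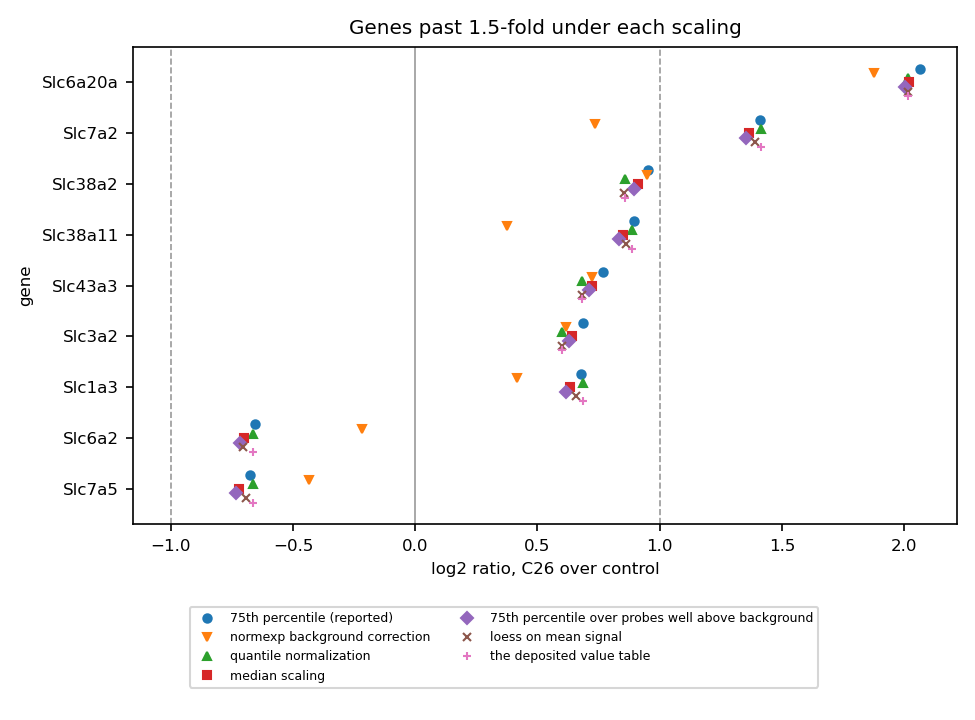
Log2 ratio (C26 over control) of the 9 transporter genes past 1.5-fold under the reported scaling and the 6 other scalings or tables, 1 symbol for each; dashed lines mark 2-fold. No gene changes sign, and the value with normexp correction lies closest to 0 for the dim probes, as for Slc7a2 at 0.74 and Slc38a11 at 0.38.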

How the data were processed

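Muscle RNA was labelled with Cy3 per the labels and hybridised to 1 array per group, on 1 slide. Per the file headers, the deposited spot intensities came from Agilent Feature Extraction 10.7.1.1 (the submitters' processing notes list 9.5.1.1), with background subtraction, detrending and surrogates for low spots. A surrogate stood in for 31.9% (control) and 25.6% (C26) of non-control spots, so low signals are less precise; the number of arrays limits precision further.

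Outlier spots were left out, log2 signals averaged per probe, and each array's 75th percentile over non-control probes subtracted. Accession or symbol matched 31381 of 55680 probes to the reference gene table (GRCm38.p6, names only); members kept the files' names. A probe was well above background where at least 50% of its spots were. Probe positions are on mm9 and promoters on GRCm38.p6. Members and lists were chosen with earlier results of these data known. By the rule for named genes, values are given for members past 2-fold, with a bound past 2-fold, among the 6 highest and 6 lowest, with probes of differing sign, or on a list of well-known transporters. Of each related list, the 2 highest, the 2 lowest and those past 2-fold are named. Values of any other member, and of Atf4, Aldh18a1 and single cell type markers, were chosen after they were seen. Some genes are counted but not reported by name here.

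The alternatives were no filter on dim probes or a stricter one, all measured probes averaged, and thresholds of 1.5-fold and 3-fold. The stricter filter kept 9556 of the 19668 measured genes. Others changed the scaling: normexp background correction (offset 50), loess (span 0.3), median or quantile scaling, and a 75th percentile taken from above-background probes alone. The last was a deposited value table. That table, also of intensity, had a median of 19.75 in both columns; 99.9% of its values lay within 0.01 (log2) of the quantile-normalized linear signal, so it is on a linear scale, not centred, and no source used here gives the authors' steps behind it. The computations were checked on simulated data and used Python 3.11.15 (pandas 2.3.3, numpy 2.4.6, statsmodels 0.14.6, scipy 1.17.1, matplotlib 3.10.9) and R 4.3.3 with limma 3.58.1.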

Additional observations from a re-analysis of the deposited data

How the results depend on the processing

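No paired analysis was possible because each group has 1 array. Of the 38 measured transporter genes, 2 were higher and 0 lower with C26 by 2-fold or more. The higher count was 1 with normexp correction, where Slc7a2 was lost, 0 with the stricter filter on dim probes, which kept 13 of the genes and left out both Slc6a20a and Slc7a2, 7 at 1.5-fold, 1 at 3-fold and 3 with no filter on dim probes, which adds Slc38a5. The lower count was 1 of 63 with no filter on dim probes (3.79% of all genes), from Slc7a13, which was above background on neither array. It was 2 at 1.5-fold (4.83%). The median log2 ratio, 0.11, was 0.0187 with no filter, over all 63 genes, and between 0.05 and 0.16 otherwise. Leaving out Slc7a6os, a gene opposite Slc7a6 that matches the name rule but is no transporter (log2 ratio 0.37), was chosen after seeing the data and gave 2, 0 and 0.10. Of 38 signs, 36 were kept under the 6 other scalings or tables; Slc36a4 and Slc38a3 turned. Of 211 values of named genes under the alternatives, 2 moved by more than the interval of their scanner error, Slc7a2 to 0.74 with normexp and Slc7a5 to -0.15 with the mean over probes.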

Other observations

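The reference gene table now gives names of these families to 2 further probes that the files list under clone names, Slc6a21 and an antisense transcript of Slc6a19. Neither was well above background on either array, and they are not counted among the 63 genes. Slc7a6 and Slc7a6os have probes on opposite strands within 2.4 kb on chromosome 8, and both had ratios above 0, at 0.53 and 0.37.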
